A study of Mus musculus with 36 samples.

Results

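The 10 genes described here encode transcription factors that build and maintain the B cell programme: Pax5, Ebf1, Tcf3, Ikzf1, Ikzf3, Foxo1, Bach2, Bcl6, Spib and Hhex. They were chosen by name from a table of 27179 genes, and each symbol matched 1 row. Expression was measured by RNA sequencing in 36 libraries of 3 mouse lymphoma cell lines labelled AH47A, 287 and 621. All 3 lines carry the Em-myc background, a Myc transgene driven by an immunoglobulin heavy-chain enhancer that causes B lineage tumours in mice. Each line expressed a negative control or 1 of 5 mutant TRP53 proteins (G280, I192S, R246Q, R270H or V170M), described by the study as human proteins, on top of the wild-type TRP53 that the study set out to activate. Each line and construct was sampled untreated and after 12 h with 5 µM nutlin-3a, a compound that blocks the MDM2 protein from binding and degrading p53. The treated cells also received 25 µM QVD-OPH, a caspase inhibitor that keeps dying cells intact, and whether the untreated cells received it is not given. Nutlin-3a and the inhibitor therefore cannot be told apart here, and "nutlin response" below means treated against untreated libraries as labelled.

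E2A (encoded by Tcf3), EBF1 and PAX5 act in sequence when lymphoid precursors commit to the B lineage: E2A and EBF1 open B cell genes and switch on Pax5, and PAX5 activates B cell genes while repressing those of other lineages. IKAROS (Ikzf1) and AIOLOS (Ikzf3) are related zinc finger factors that restrain proliferation of precursors and support their differentiation. FOXO1 is held in the cytoplasm by PI3K and AKT signalling and, when nuclear, activates the recombinase genes Rag1 and Rag2. BACH2 and BCL6 are repressors that hold back plasma cell differentiation, and BCL6 also represses p53 pathway genes in germinal centre cells. SPIB is an ETS factor that works beside PU.1 in B cell receptor signalling, and HHEX is a homeobox factor needed for early lymphoid progenitors.

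Each construct and treatment group held 3 libraries, 1 from each line, and total counts ran from 5404113 to 10718302 a library. Libraries separated first by line, which accounted for 98.0% of the spread along the first principal component, itself 37.9% of the variance. Trp53 counts checked the labels: untreated levels were 206 to 291 CPM (counts scaled to the library's total after TMM adjustment) in the 3 control libraries and 693 to 2587 CPM in the 15 libraries with a mutant, with no overlap. Under nutlin-3a they were 261 to 445.9 CPM in the controls and 445.8 to 2024 CPM with a mutant, so that the ranges met. How far reads of human sequence count towards the mouse gene was not tested. Whether the expressed proteins have the human or the mouse sequence was not tested either. The summed level of 7 B cell markers was 2897 to 5487 CPM over all libraries, with none of the 7 at 0. One of them, Ms4a1 (CD20, a surface protein of mature B cells), had means of only 0.221, 0.38 and 4.51 CPM in untreated AH47A, 287 and 621. The summed level of 8 T cell markers reached at most 40.4 CPM and that of 8 myeloid markers at most 58.5 CPM, the latter in nutlin-treated 287 libraries. Bulk libraries cannot tell fewer cells of a type from less RNA per cell.

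Across genes, levels were compared per kilobase of counted gene length, as untreated means over 6 constructs. Ikzf1 was at 255 CPM per kilobase in AH47A, 143 in 287 and 166 in 621. Tcf3 was at 124, 164 and 156, and Pax5 at 106, 112 and 99.8. These were the 3 highest of the 10 genes in every line. Bcl6 was the lowest in every line, at 1.37, 0.423 and 0.479 CPM per kilobase, and the highest level of any library was 15.6 CPM. Its untreated libraries held 5 to 58 reads each, so that its values carry more counting error than those of the other members. Foxo1 lay next above Bcl6 in AH47A and 621, at 7.16 and 20.1 CPM per kilobase, while in 287 the next above Bcl6 was Hhex at 13.1, beside Foxo1 at 14.1.

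**Figure D1:**
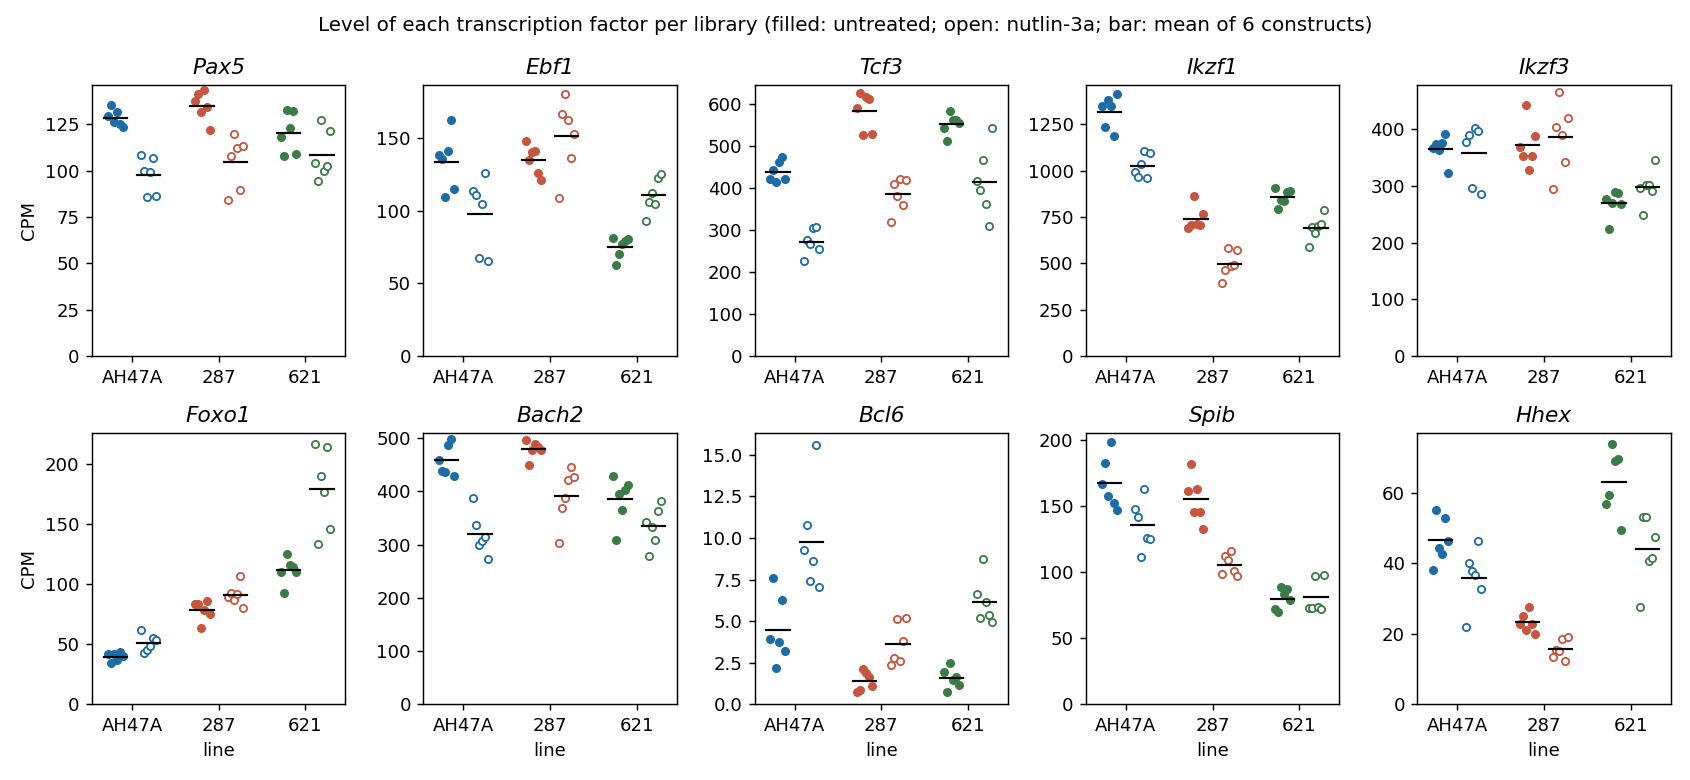
Level of each of the 10 genes in CPM (linear axis from 0) in all 36 libraries, by line. Filled points are untreated and open points nutlin-treated libraries, in the order control, G280, I192S, R246Q, R270H, V170M, and bars are means of 6 constructs; Foxo1 is lowest in AH47A and highest in 621, and Bcl6 is higher in the treated libraries of each line.

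The first comparison asked how the lines differ before treatment. Differences were tested with edgeR's quasi-likelihood test on all 36 libraries, with p-values adjusted by Benjamini-Hochberg over 12321 genes and a call at an adjusted p under 0.05. All 10 members passed the filter on low counts. The 6 constructs stood in as replicates of a line, so these p-values measure the spread between libraries of 1 tumour line and not between tumours. Line 287 differed from AH47A in 5 of 10 members, line 621 from AH47A in 9 and line 621 from 287 in 7. Among all genes tested, 58.8%, 58.6% and 60.4% were called in these comparisons, so the counts of 5 and 7 lie near the background.

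Foxo1 and Hhex differed between every pair of lines. Untreated Foxo1 was 34.1, 40.9 and 43.4 CPM (lowest, median and highest of 6) in AH47A, 63.2, 80.9 and 86.0 CPM in 287, and 92.6, 113 and 125 CPM in 621. The order AH47A, 287, 621 held with no overlap between any pair of lines. Foxo1 was 1.97-fold higher in 287 than in AH47A (log2 difference 0.98 ± 0.09 SE, adjusted p = 2.13e-10) and 2.81-fold higher in 621 than in AH47A (1.49 ± 0.09, adjusted p = 1.75e-14). Between 621 and 287 the log2 difference was 0.51 ± 0.08 (adjusted p = 6.45e-06). Hhex had another order, with 287 lowest. Its levels were 20.0, 22.9 and 27.6 CPM in 287, 38.2, 45.4 and 55.3 CPM in AH47A, and 49.6, 64.3 and 74.0 CPM in 621. The 287 libraries did not overlap the others, while AH47A and 621 overlapped. The log2 difference of Hhex was -1.0 ± 0.12 for 287 against AH47A (adjusted p = 1.95e-08), 0.44 ± 0.11 for 621 against AH47A (adjusted p = 0.00105) and 1.44 ± 0.11 for 621 against 287 (adjusted p = 8.40e-12).

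Ikzf1 also differed between every pair of lines and was highest in AH47A. Its untreated levels were 1185, 1348 and 1410 CPM in AH47A, 690, 710 and 861 CPM in 287, and 794, 862 and 908 CPM in 621. AH47A stood clear of the other lines, whereas 287 and 621 overlapped. Against AH47A the log2 difference was -0.83 ± 0.06 in 287 (adjusted p = 3.21e-13) and -0.61 ± 0.06 in 621 (adjusted p = 1.43e-10), and 621 exceeded 287 by 0.22 ± 0.06 (adjusted p = 0.0014). Its relative Ikzf3 did not share this order: AH47A and 287 had means of 365 ± 23.4 and 372 ± 39.5 CPM (SD, n = 6), while 621 had 269 ± 24.0 CPM. Ikzf3 was lower in 621 than in AH47A by 0.44 ± 0.11 log2 (adjusted p = 0.000878), and between 287 and AH47A the difference was 0.02 with a 95% interval of -0.20 to 0.24.

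Ebf1 and Spib separated line 621 from the others. Untreated Ebf1 was 62.4, 78.3 and 81.2 CPM in 621, 110, 137 and 162 CPM in AH47A, and 121, 138 and 148 CPM in 287. No 621 library reached the lowest library of the other lines. Ebf1 was 1.77-fold lower in 621 than in AH47A (log2 difference -0.83 ± 0.14, adjusted p = 2.16e-05) and 1.8-fold lower than in 287 (-0.85 ± 0.14, adjusted p = 1.27e-05). Spib behaved alike in rank: 69.7, 81.4 and 88.9 CPM in 621, 147, 162 and 199 CPM in AH47A, and 133, 154 and 182 CPM in 287. Spib was 2.08-fold lower in 621 than in AH47A (-1.06 ± 0.10, adjusted p = 3.63e-10), and the difference between 287 and AH47A, -0.11 with a 95% interval of -0.31 to 0.08, was not called.

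Bcl6 was highest in AH47A. Its untreated libraries there had 2.19, 3.85 and 7.61 CPM, against 0.76, 1.37 and 2.09 CPM in 287 and 0.731, 1.56 and 2.5 CPM in 621. The AH47A libraries lay above every 287 library and overlapped those of 621 at their low end. The log2 difference against AH47A was -1.65 ± 0.32 in 287 (adjusted p = 8.19e-05) and -1.48 ± 0.32 in 621 (adjusted p = 0.000214). Bach2, a repressor like Bcl6, differed little: untreated means were 458 ± 29.2, 479 ± 15.7 and 385 ± 43.3 CPM in AH47A, 287 and 621 (SD, n = 6). It was lower in 621 than in 287 by 0.32 ± 0.08 log2 (adjusted p = 0.00212) and than in AH47A by 0.25 ± 0.09 (adjusted p = 0.0126). Without the untreated 621 G280 library, the second difference lost its call (adjusted p = 0.0511).

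Tcf3 was higher in 287 (mean 583 ± 44.3 CPM) and 621 (552 ± 24.3 CPM) than in AH47A (438 ± 24.3 CPM, SD, n = 6). The log2 difference from AH47A was 0.41 ± 0.09 (adjusted p = 0.00021) and 0.34 ± 0.09 (adjusted p = 0.0016). Pax5, the factor that holds B cell identity, was not called between any pair of lines in the main model. Its untreated means were 128 ± 4.28, 135 ± 7.74 and 121 ± 10.8 CPM in AH47A, 287 and 621. The 95% intervals of the Pax5 log2 differences ran from -0.10 to 0.24 for 287 against AH47A, from -0.26 to 0.08 for 621 against AH47A and from -0.33 to 0.01 for 621 against 287. The last difference passed the threshold in 4 alternatives: without line AH47A (adjusted p = 0.0157), without the untreated 621 R270H library (0.0343), without the untreated 287 I192S library (0.0472) and without the treated AH47A I192S library (0.0474).

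**Figure D2:**
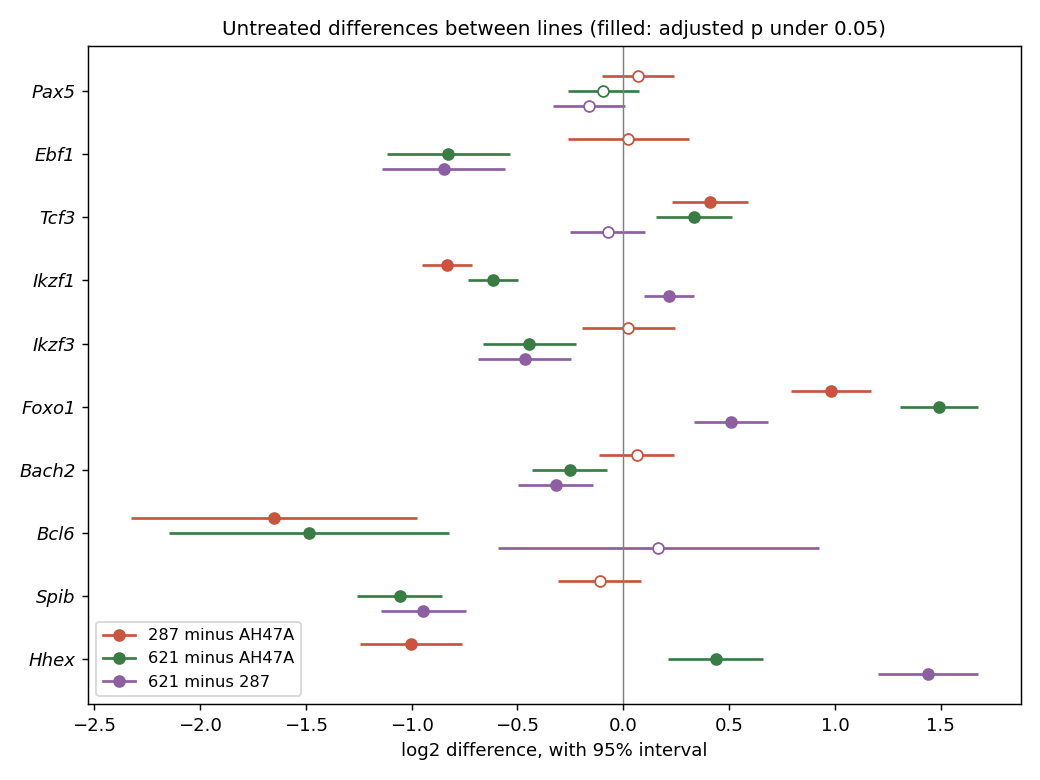
Log2 difference in untreated level between each pair of lines for the 10 genes, with 95% intervals from the edgeR fit; filled points have an adjusted p under 0.05. Foxo1, Hhex and Ikzf1 are filled in all 3 comparisons and Pax5 in none.

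Genes known to lie downstream of these factors were counted in lists drawn from textbook knowledge. Of 14 listed targets of FOXO1, 11 were higher and 2 lower in 621 than in AH47A, with a median log2 difference of 0.68, and 8 were higher and 3 lower in 287 (median 0.79). Over all genes tested, 29.1% were higher in 621 and 29.7% in 287, with medians of -0.01 and 0.01. Rag1, which cuts DNA at antigen receptor genes, had untreated means of 0.242, 74.4 and 288 CPM in AH47A, 287 and 621, the order of the Foxo1 levels. Its partner Rag2 had 0.056, 13.6 and 35 CPM. Il7r, the receptor chain for interleukin 7 and also a listed FOXO1 target, did not follow that order, with 107, 227 and 21.6 CPM. Of 19 tested genes known to be activated by PAX5 and EBF1, 9 were higher and 7 lower in 621 than in AH47A. Among them, Igll1 and Vpreb1, the surrogate light chain genes of the pre-B cell receptor, had untreated means of 159 and 61.0 CPM in AH47A, 96.1 and 54.1 CPM in 287, and only 0.132 and 0.127 CPM in 621. Lef1, a factor of B cell precursors, likewise had 207, 123 and 0.153 CPM. Of 31 other tested B lineage transcription factors, 20 were lower and 8 higher in 621 than in AH47A (median log2 difference -0.31), against 29.6% of all genes that were lower.

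The second comparison asked what nutlin-3a did in each line, averaged over the 6 constructs. Tcf3, Ikzf1, Bach2 and Hhex fell and Foxo1 and Bcl6 rose in each of the 3 lines. In each of the 18 combinations of line and construct the treated library lay below the untreated one for those 4 genes and above it for Foxo1 and Bcl6. Nutlin-3a changed 9 members in AH47A, 8 in 287 and 7 in 621, where 43.6%, 71.9% and 55% of all genes tested were called. The count in AH47A lies above its background, and those in 287 and 621 lie nearer to theirs. The response differed between the lines in 4 members, Ebf1, Spib, Foxo1 and Ikzf1, where 60.3% of all genes tested did. For Bach2 this test passed the threshold in 7 of 41 alternatives (adjusted p = 0.068 in the main model). The median log2 response of the 10 members was -0.37, -0.33 and -0.07 in AH47A, 287 and 621, against -0.01, 0.00 and -0.03 over all genes tested.

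Tcf3 fell in all lines. In AH47A it went from 413, 432 and 473 CPM untreated to 227, 272 and 306 CPM with nutlin-3a, in 287 from 527, 600 and 625 to 318, 396 and 422 CPM, and in 621 from 511, 557 and 584 to 308, 405 and 543 CPM. The treated and untreated libraries did not overlap in AH47A and 287 and overlapped in 621. The log2 response was -0.68 ± 0.09 in AH47A (adjusted p = 6.10e-07), -0.60 ± 0.09 in 287 (adjusted p = 7.16e-07) and -0.42 ± 0.09 in 621 (adjusted p = 0.000189).

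Ikzf1 fell to 960, 1014 and 1106 CPM in AH47A, to 393, 488 and 581 CPM in 287, and to 585, 699 and 788 CPM in 621. In each line its treated libraries lay below all untreated ones. The log2 response was -0.36 ± 0.06 (adjusted p = 7.48e-06), -0.58 ± 0.06 (adjusted p = 2.80e-10) and -0.32 ± 0.06 (adjusted p = 2.37e-05), and its size differed between lines (F test over the 3 lines, adjusted p = 0.0109). That difference lost its call when the construct terms were left out of the model (adjusted p = 0.0527). Hhex fell by 0.40 ± 0.11 log2 in AH47A (adjusted p = 0.00543), by 0.58 ± 0.12 in 287 (adjusted p = 0.000172) and by 0.54 ± 0.11 in 621 (adjusted p = 0.000151). Treated Hhex levels were 21.9, 37.3 and 46.5 CPM in AH47A, 12.3, 15.3 and 19.3 CPM in 287, and 27.6, 44.5 and 53.3 CPM in 621, so that treated and untreated libraries were separate only in 287. No difference in the Hhex response between lines was called (adjusted p = 0.575).

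Bach2 fell by 0.52 ± 0.09 log2 in AH47A (adjusted p = 2.34e-05), where the libraries went from 428, 449 and 498 to 272, 310 and 388 CPM. In 287 it fell by 0.29 ± 0.09 (adjusted p = 0.0036), and in 621 by 0.20 ± 0.09 (adjusted p = 0.0461). The call in 621 sat at the threshold and was lost in 30 of 43 alternative analyses, 26 of which left out a single library, with adjusted p-values up to 0.159. Bcl6, the other repressor of plasma cell fate, rose. Its treated libraries had 7.03, 8.95 and 15.6 CPM in AH47A, 2.34, 3.29 and 5.18 CPM in 287, and 4.95, 5.74 and 8.72 CPM in 621. Treated and untreated Bcl6 libraries were separate in 287 and 621, and overlapped in AH47A, where the highest untreated library had 7.61 CPM. The log2 response was 1.13 ± 0.26 in AH47A (adjusted p = 0.000923), 1.36 ± 0.33 in 287 (adjusted p = 0.000594) and 1.95 ± 0.31 in 621 (adjusted p = 5.82e-06).

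Foxo1 rose most in 621, from a median of 113 CPM to 134, 183 and 217 CPM (lowest, median and highest), a log2 response of 0.67 ± 0.08 (adjusted p = 1.04e-07). In AH47A it rose by 0.36 ± 0.09 (adjusted p = 0.00214), to 42.9, 50.8 and 62.2 CPM, with the highest untreated library at 43.4 CPM. In 287 it rose by 0.22 ± 0.09 (adjusted p = 0.022), to 80.6, 90.6 and 106 CPM. Treated and untreated libraries overlapped in both AH47A and 287. The call in 287 was lost in 13 of 43 alternatives, among them those without line AH47A or line 621 and 11 that left out a single library, with adjusted p-values up to 0.273. The response differed between the lines (F test, adjusted p = 0.00535).

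Ebf1 was the 1 member whose called responses had opposite signs. In AH47A it fell in each of 6 constructs, to 65.1, 108 and 126 CPM (log2 response -0.45 ± 0.14, adjusted p = 0.0117). In 621 it rose in each of 6, to 93.0, 109 and 125 CPM, and all treated libraries lay above all untreated ones (0.56 ± 0.14, adjusted p = 0.00185). In 287 it was higher after treatment with each of the 5 mutants, by 0.12 to 0.36 log2. In the negative control of 287 it was lower, at 148.2 CPM untreated and 108.8 CPM treated (-0.44, 1 library each). The mean response over the 6 constructs of 287, 0.16 with a 95% interval of -0.13 to 0.44, was not called. The responses differed between the lines (F test, adjusted p = 0.000531). The call in AH47A was lost without line 621, without the untreated AH47A R270H library or without the treated AH47A V170M library, with adjusted p-values up to 0.0533. After treatment the mean Ebf1 level was 97.8 ± 25.4 CPM in AH47A and 111 ± 12.0 CPM in 621 (SD, n = 6), whereas before treatment it was 134 ± 19.1 and 75.1 ± 7.37 CPM.

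Spib fell in AH47A by 0.30 ± 0.09 log2 (adjusted p = 0.0117) and in 287 by 0.55 ± 0.09 (adjusted p = 1.03e-05). In 287 the libraries went from 133, 154 and 182 CPM to 97.0, 105 and 116 CPM with no overlap. In 621, where it was already low, the response was 0.01 with a 95% interval of -0.19 to 0.22, and 4 of 6 constructs were higher. The Spib responses differed between the lines (F test, adjusted p = 0.00347). The call in AH47A was lost without line 287, without the treated AH47A I192S library or without the untreated AH47A R246Q library, with adjusted p-values up to 0.0625. Pax5 fell by 0.39 ± 0.08 log2 in AH47A (adjusted p = 0.000349) and by 0.37 ± 0.08 in 287 (adjusted p = 0.000184). In 621 the Pax5 response was -0.16, with a 95% interval of -0.33 to 0.01, and was not called. Over the 18 combinations of line and construct, Pax5 was lower after treatment in 17. Ikzf3 was not called in any line, with 95% intervals of -0.25 to 0.19 in AH47A, -0.17 to 0.27 in 287 and -0.08 to 0.36 in 621.

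**Figure D3:**
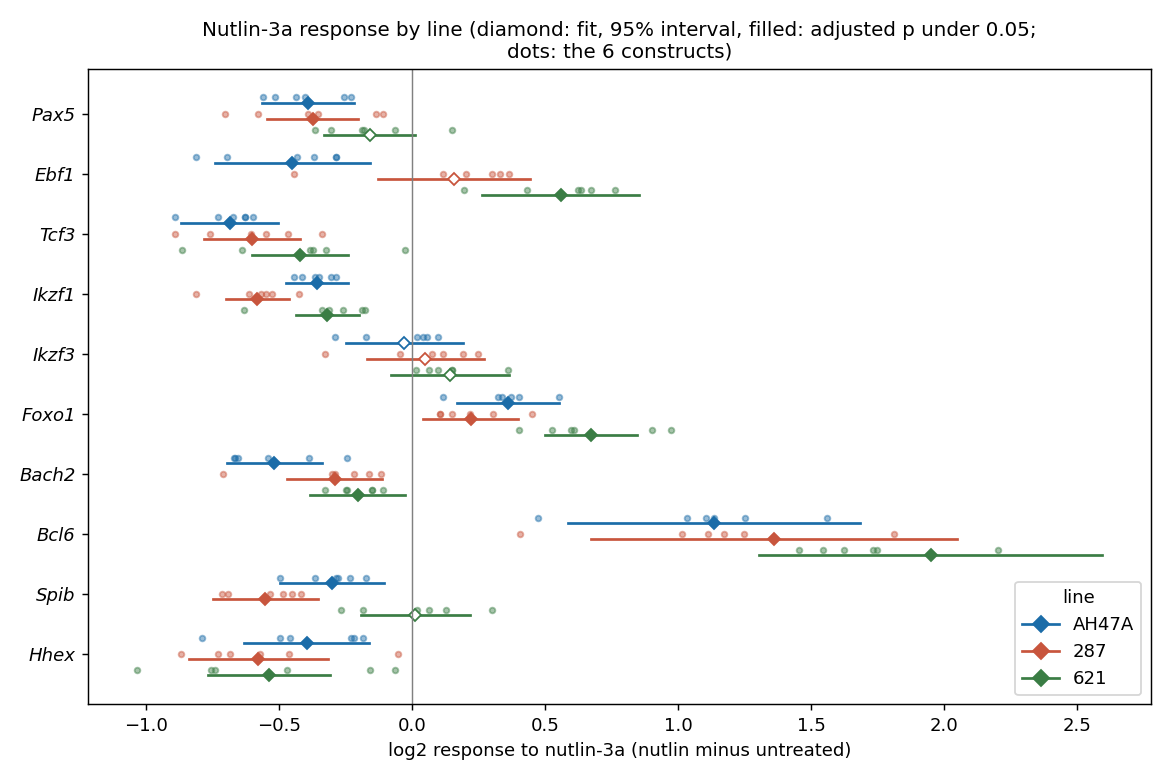
Log2 difference between nutlin-treated and untreated levels of the 10 genes in each line. Diamonds with bars are the edgeR estimates with 95% intervals, filled at an adjusted p under 0.05, and dots are the 6 constructs of that line; Bcl6 and Foxo1 lie right of 0 and Tcf3, Ikzf1, Bach2 and Hhex left of 0 in all 3 lines, while Ebf1 lies left in AH47A and right in 621.

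Promoter sequences were examined for the 6 genes that moved in 1 direction in all 3 lines. RefSeq promoter windows (build GRCm38.p6) were held for 9 of the 10 members, with a second window for Ebf1, Ikzf1 and Bcl6, and Ikzf3 had none. A window held 300 bases, 250 before the transcription start and 50 after it. Sequence outside the windows was not searched. Every window was searched on both strands for the p53 half-site, the MYC E-box CACGTG, the E-box CANNTG that E2A binds and the palindromic EBF site. A CACGTG match also matches CANNTG. A p53 half-site occurred in the windows of Tcf3, Ikzf1 and Bach2, but 8.36% of 32817 promoter windows hold one, and no member window held a pair of half-sites with a spacer of at most 13 bases, the full binding site (0.0731% of windows). The EBF site occurred in Foxo1 (0.905% of windows) and CACGTG in Bcl6 (7.15% of windows). CANNTG occurred in windows of Pax5, Ebf1, Tcf3, Foxo1, Bcl6 and Spib, and 72.3% of all windows hold it. A window with such a match is shown for Tcf3, Ikzf1, Foxo1 and Bcl6, 5′ to 3′ on the gene's strand, with the match in capitals: a p53 half-site in the first 2, the EBF site in Foxo1 and CACGTG in Bcl6. A match is a description of the letters and not a measured binding site.
Tcf3, chr10:80433621-80433885, minus strand: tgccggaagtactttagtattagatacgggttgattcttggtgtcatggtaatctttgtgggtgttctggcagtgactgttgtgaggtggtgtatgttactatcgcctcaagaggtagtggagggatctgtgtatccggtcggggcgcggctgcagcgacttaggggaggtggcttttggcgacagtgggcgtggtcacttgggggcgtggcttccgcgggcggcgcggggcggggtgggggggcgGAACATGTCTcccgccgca
Ikzf1, chr11:11689927-11690191, plus strand: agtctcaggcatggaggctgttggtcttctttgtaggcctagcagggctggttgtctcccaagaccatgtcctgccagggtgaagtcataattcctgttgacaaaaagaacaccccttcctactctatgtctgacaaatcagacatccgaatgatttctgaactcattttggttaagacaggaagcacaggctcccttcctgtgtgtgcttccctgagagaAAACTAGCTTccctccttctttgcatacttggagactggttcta
Foxo1, chr3:52268087-52268351, plus strand: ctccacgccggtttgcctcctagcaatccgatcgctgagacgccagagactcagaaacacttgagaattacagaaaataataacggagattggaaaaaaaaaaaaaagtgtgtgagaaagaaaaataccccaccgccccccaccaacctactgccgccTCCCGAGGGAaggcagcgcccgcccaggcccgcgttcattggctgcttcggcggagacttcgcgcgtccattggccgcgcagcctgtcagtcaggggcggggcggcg
Bcl6, chr16:23988838-23989102, minus strand: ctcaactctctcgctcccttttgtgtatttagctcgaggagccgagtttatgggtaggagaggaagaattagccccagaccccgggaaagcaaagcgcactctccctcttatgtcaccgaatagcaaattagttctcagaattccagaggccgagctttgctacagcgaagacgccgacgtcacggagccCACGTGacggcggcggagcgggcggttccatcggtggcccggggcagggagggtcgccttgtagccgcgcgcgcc

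Known downstream genes were counted under nutlin-3a as well. Of 19 tested genes activated by PAX5 and EBF1, 11 fell and 1 rose in AH47A, 12 fell and 1 rose in 287, and 10 fell and 2 rose in 621, with median log2 responses of -0.41, -0.77 and -0.44. Among all genes tested, 22.2%, 35.7% and 28.6% fell. The called falls of greatest size in AH47A were Vpreb3 (an endoplasmic reticulum protein of B cell precursors, -0.94 ± 0.14 log2, adjusted p = 1.41e-05) and Lef1 (-0.84 ± 0.28, adjusted p = 0.0197). In 287 they were Igll1 (-2.03 ± 0.32, adjusted p = 6.23e-06) and Cd24a (a surface glycoprotein of B cell precursors, -1.8 ± 0.09, adjusted p = 4.01e-15). In 621 they were Ms4a1, from 4.51 to 1.52 CPM (-1.56 ± 0.38, adjusted p = 0.00107), and Siglecg (an inhibitory co-receptor, -0.97 ± 0.16, adjusted p = 1.48e-05). Cd83, a surface protein of activated B cells, rose in each line, to means of only 0.901 CPM in AH47A, 0.913 in 287 and 3.52 in 621. Blnk, an adaptor of B cell receptor signalling, also rose in 621 (0.45 ± 0.09, adjusted p = 8.19e-05). Of 5 tested genes repressed by PAX5, Notch1 (a receptor that directs T lineage fate) rose in each line, from 44.6 to 165 CPM in AH47A, 54.5 to 490 CPM in 287 and 35.3 to 198 CPM in 621. The other 4 had no called change in AH47A, and Flt3 in 287 (higher) and Itgal in 621 (lower) were the other calls of this list.

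Of 14 FOXO1 targets, 8 rose and 1 fell in AH47A, 9 rose and 5 fell in 287, and 4 rose and 4 fell in 621, where Foxo1 itself rose most. The median log2 responses were 0.69, 0.41 and 0.13. Some of these genes, such as Bcl2l11, which encodes the pro-apoptotic protein BIM, are also known to respond to p53. Klf2, a zinc finger factor that keeps lymphocytes quiescent, rose in AH47A from 3.78 to 64.8 CPM and fell in 621 from 98.1 to 24.9 CPM. Rag2 fell in 287 by 1.32 ± 0.19 log2 (adjusted p = 8.14e-07). Of 12 tested genes repressed by BCL6, 5 rose and 2 fell in AH47A, 9 rose and 2 fell in 287, and 8 rose and 2 fell in 621, while Bcl6 itself rose. Among all genes tested, 21.4%, 36.2% and 26.4% rose. Cxcl10, a chemokine induced by interferon and listed as repressed by BCL6, rose from 0.0213 to 14.8 CPM in AH47A and from 0.0194 to 210 CPM in 287, and in 621 it was at 0 untreated and 25.5 CPM treated. Of 31 other B lineage transcription factors, 7 rose and 11 fell in AH47A, 11 rose and 10 fell in 287, and 11 rose and 12 fell in 621. Foxo3, a relative of Foxo1, rose in each line, by 1.15 ± 0.12 log2 in AH47A (adjusted p = 2.94e-08), 2.41 ± 0.12 in 287 (adjusted p = 1.36e-15) and 0.97 ± 0.12 in 621 (adjusted p = 2.82e-07). In the same libraries the summed myeloid markers moved from between 6.25 and 9.07 CPM untreated to between 10.5 and 28.2 CPM treated in AH47A, from between 17 and 24.3 to between 36 and 58.5 CPM in 287, and from between 3.78 and 6.53 to between 5.99 and 15.5 CPM in 621. The sum of 7 plasma cell markers went from between 827 and 966 to between 327 and 486 CPM in 287, from between 475 and 555 to between 388 and 487 CPM in AH47A and from between 417 and 523 to between 462 and 563 CPM in 621. Most of this sum was the transcription factor gene Irf4. Its means went from 784 to 370 CPM in 287, from 414 to 347 CPM in AH47A and from 391 to 458 CPM in 621. Of the same list, Prdm1 went from only 0.363 to 0.614 CPM in 287, and untreated Jchain and Tnfrsf17 were at 0.119 and 0.0609 CPM there. The sum of 7 B cell markers was higher after treatment in 287, going from between 3280 and 3667 to between 4127 and 4644 CPM with no overlap, and was lower after treatment in AH47A (3280 to 3446 CPM untreated, 2897 to 3262 CPM treated). In 621 the B cell sums overlapped. The T cell sums in 287 went from between 10.6 and 18.2 to between 18.4 and 25.1 CPM. The part of these markers in the responses of the members was not tested.

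The third comparison asked whether the mutant TRP53 proteins changed the members. In untreated cells none of 50 pairs of member and mutant was called by edgeR against the control, none of the 50 had an unadjusted p under 0.05, and DESeq2 called 0. The mean of the 5 mutants also called 0 members, with 0 at an unadjusted p under 0.05 and 0 in DESeq2. Log2 differences in the 50 pairs ran from -0.30 to 0.44. Across all genes tested, 0.00812% were called for each mutant and 0.0162% for the mean. No member differed among the 5 mutants, either untreated (0.0812% of genes called) or in the response (0%).

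Under nutlin-3a, Hhex was higher with the mutants than with the control. Untreated Hhex already lay above the control of its line in 12 of 15 mutant libraries, though without a call. In untreated AH47A the control had 38.2 CPM and the 5 mutants 42.8 to 55.3 CPM. Treated control libraries had 21.9, 13.6 and 27.6 CPM of Hhex in AH47A, 287 and 621, while the mutant libraries had 32.7 to 46.5, 12.3 to 19.3 and 40.8 to 53.3 CPM. Of 15 mutant libraries, 14 lay above the control of their line, and R270H in 287 was the exception. These 15 share the same 3 treated control libraries, so the count is not one of independent comparisons. The mean of the 5 mutants exceeded the control by 0.64 ± 0.14 log2, or 1.56-fold (adjusted p = 0.00224). Singly, the difference was 0.71 ± 0.17 log2 with G280 (adjusted p = 0.00841), 0.63 ± 0.17 with V170M (adjusted p = 0.0118), 0.67 ± 0.17 with I192S (adjusted p = 0.0321) and 0.59 ± 0.18 with R246Q (adjusted p = 0.0424). With R270H it was 0.58 ± 0.17 and was not called (adjusted p = 0.0542). The call for the mean was lost without line 621 or without the treated AH47A control library, with a log2 difference of 0.57 (adjusted p = 0.0688) and 0.53 (adjusted p = 0.0565). Each single call was lost without line 621 and without the treated AH47A control library. The calls with I192S and R246Q were also lost without line AH47A (adjusted p = 0.12 and 0.17) and without line 287 (0.0617 and 0.0991), so that leaving out any line removed them. R270H, by contrast, passed the threshold without line 287 (0.84, adjusted p = 0.0227) or without its treated 287 library (0.74, adjusted p = 0.0132), among other libraries. The calls with G280, I192S, R246Q and V170M were lost on leaving out 3, 4, 9 and 3 single libraries, the treated 621 control among them for each.

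Ikzf1 was higher with the mutants in treated 287 and 621 libraries. In 287 the control had 393 CPM and the mutants 464 to 581 CPM, and in 621 the control had 585 CPM and the mutants 666 to 788 CPM. In AH47A the control, at 993 CPM, lay within the range of the mutants, 960 to 1106 CPM. The untreated Ikzf1 control of 287, at 690 CPM, already lay below the 5 mutants, 705 to 861 CPM. In untreated 621 the control, at 908 CPM, lay above them, and in untreated AH47A it lay within their range. The treated 287 control also lay below all 5 mutants for Pax5, Ebf1, Tcf3, Ikzf3, Bach2 and Bcl6. For treated Ikzf1 the mean of the 5 mutants exceeded the control by 0.24 ± 0.06 log2 (adjusted p = 0.00937), in 13 of 15 libraries. Singly, V170M was called (0.36 ± 0.08, adjusted p = 0.00217). The mean lost its call without line 287, without line 621, without the treated control library of 287 or without that of 621 (adjusted p-values of up to 0.171), and V170M lost it without line 287 (adjusted p = 0.0674). Foxo1 was lower with G280 than with the control (-0.39 ± 0.12, adjusted p = 0.0351). Its treated control libraries had 62.2, 89.6 and 217 CPM in AH47A, 287 and 621 and the G280 libraries 42.9, 92.9 and 134 CPM, so the difference lay in AH47A and 621 and was lost without either line (adjusted p = 0.237 and 0.52) or any of the 4 treated libraries of these constructs in them (adjusted p of 0.0919 to 0.334).

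In all, 6 of 50 pairs were called under nutlin-3a and 12 had an unadjusted p under 0.05. DESeq2 called 9. With an additive line term in place of separate line responses every one of the 6 calls was lost, and the mean of 5 mutants called 1 member in place of 2. With no line term both counts were 0. The count of pairs was 3 without line 621, 3 without the treated AH47A control library and 2 without the treated 621 control library. The share of all genes called was 10.5% for G280, 2.66% for I192S, 6.06% for R246Q, 3.64% for R270H, 17.6% for V170M and 16% for the mean of 5. The 2 of 10 members called for the mean therefore lie near the background. The members Pax5, Ebf1, Tcf3, Ikzf3, Bach2, Bcl6 and Spib were called with no mutant in the main model. For the mean of 5, Ebf1 passed the threshold without line AH47A (0.43, adjusted p = 0.0169), Tcf3 without line 621 (0.32, adjusted p = 0.00772) and Foxo1 without line 287 (-0.35, adjusted p = 0.02). For Bcl6 the 95% interval of the mean difference ran from -0.45 to 0.78, so that this design left a wide range for that gene.

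Whether the response itself differed between mutants and control was tested as an interaction. No member was called for any mutant or for their mean by edgeR, with 6 of 50 pairs and 2 of 10 members at an unadjusted p under 0.05, and DESeq2 called 0 pairs. Background shares were 0.179% for G280, 0.00812% for I192S, 0.0243% for R246Q, 0% for R270H, 3.64% for V170M and 3.38% for the mean. With the control alone, nutlin-3a changed 7 members, against 53.7% of all genes: Tcf3 (-0.72 ± 0.12), Ikzf1 (-0.62 ± 0.08), Hhex (-0.88 ± 0.17), Pax5 (-0.37 ± 0.12) and Bach2 (-0.40 ± 0.12) fell and Foxo1 (0.56 ± 0.12) and Bcl6 (1.48 ± 0.44) rose, with adjusted p-values from 1.79e-07 to 0.00914. For Hhex the mean response of the mutants was 0.45 ± 0.19 log2 above that of the control, with a 95% interval of 0.06 to 0.84 (adjusted p = 0.186). For Ikzf1 it was 0.25 ± 0.09 above (interval 0.07 to 0.43, adjusted p = 0.112), and without the treated AH47A control library this difference was called (0.35, adjusted p = 0.0363). Pax5 and Bach2 lost their calls in the control without line 287 or its treated control library (adjusted p-values of up to 0.322), and Foxo1 and Bcl6 without line 621 (up to 0.0731).

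**Figure D4:**
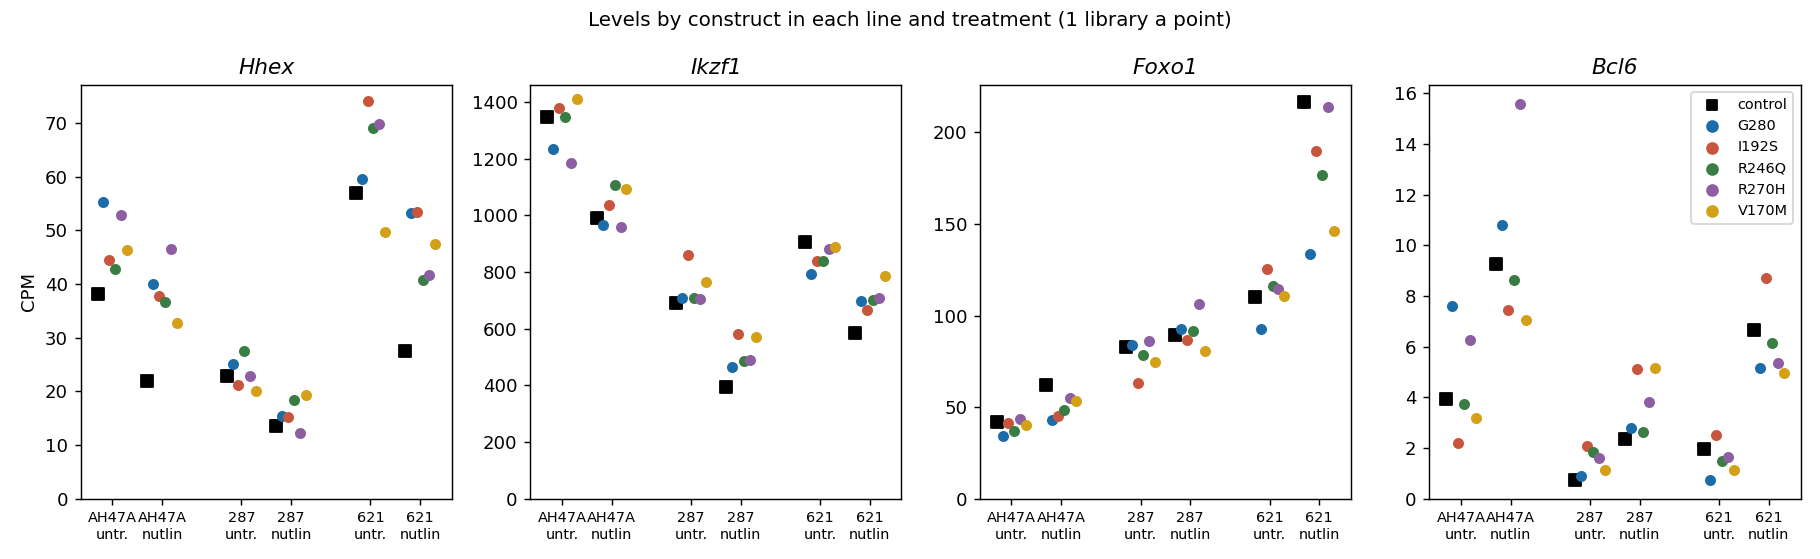
Levels of Hhex, Ikzf1, Foxo1 and Bcl6 in CPM (linear axis from 0) by construct, 1 library a point, with squares for the negative control. In treated AH47A and 621 the Hhex control square lies below all 5 mutants, and in treated 287 and 621 the Ikzf1 square does.

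The spread of each member over the 36 libraries was divided among line, treatment, construct and their combinations, as a description of log2 CPM. Line held the largest share for Foxo1 (84.9%), Hhex (75.0%), Spib (72.2%), Ikzf1 (71.3%), Ikzf3 (55.7%) and Ebf1 (42.5%). Treatment held the largest share for Pax5 (54.5%), Tcf3 (53.8%), Bcl6 (46.7%) and Bach2 (44.6%). Construct alone held between 1.47% (Tcf3) and 5.87% (Bach2). The combination of line and construct, for which the main model has no term, held from 1.9% (Foxo1) to 29.1% (Ikzf3). It was 17.25% for Ebf1 and 17.05% for Pax5. Ebf1 stood out by the combination of line and treatment, 27.9%, where no other member passed 6.93%. Pax5 varied least in all, with a standard deviation of 0.21 on the log2 scale, and Bcl6 most, with 0.97, at 5 to 112 reads a library.

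**Figure D5:**
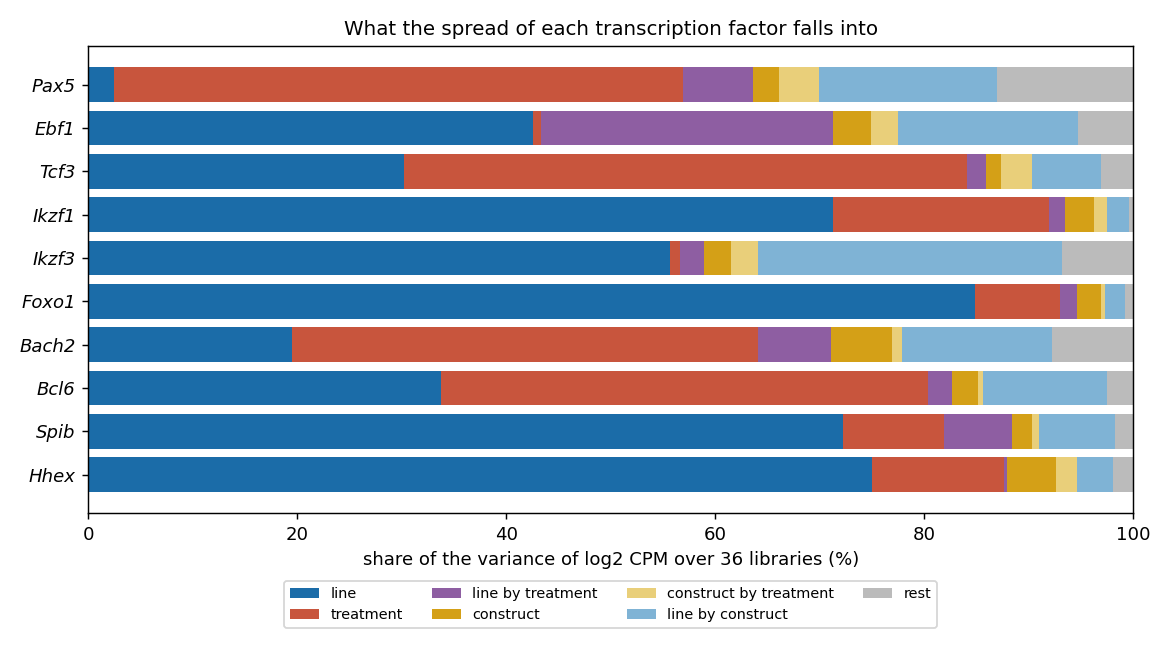
Share of the variance of log2 CPM over 36 libraries that falls to line, treatment, construct, their pairwise combinations and the rest, for each of the 10 genes. The line share is widest for Foxo1 and the treatment share for Pax5 and Tcf3.

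For each member the 1 tested gene with the most similar profile over the 36 libraries was found, as the smallest root mean square difference of centred log2 CPM. Pax5 was nearest to Gm19980 (0.14) and Ikzf3 to Rreb1 (0.14). Bach2 was nearest to Dot1l (0.16), Ikzf1 to Zfp395 (0.16) and Tcf3 to Rac2 (0.17). Spib was nearest to Cecr2 (0.17), Hhex to Mapre2 (0.21), Ebf1 to Ccdc18 (0.22) and Foxo1 to Dennd4a (0.28). Bcl6 was nearest to Rgs2 at 0.56, the widest distance of the 10. The distances were not scaled to each gene's own spread, an SD of 1.05 for the Bcl6 profile and 0.21 for that of Pax5. No nearest gene was itself a member.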

How the data were processed

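The authors deposited raw counts of reads per gene for 36 libraries, demultiplexed with bcl2fastq 1.8.4 and counted with featureCounts on mm10 (GRCm38), per the submitters' processing notes. The deposited counts are not normalized. The sources used here do not give the aligner, gene models or strandedness, so reads of overlapping or antisense genes cannot be assigned with certainty. The deposited gene length, another column of the table, was used only to compare levels between genes. Each of 36 deposited single-sample files was identical to its column. Of 27179 genes, 12321 passed edgeR's filter (minimum count 10 over 12 groups) and held 99.9% of counts. The 859 rows with no gene symbol (0.303% of counts) stayed in.

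Libraries were grouped by construct and treatment, and the cell line label pairs the libraries across groups: the 198 pairs of libraries of 1 line all deviated together from their group means (r from 0.629 to 0.929). The main model in edgeR 4.0.16 (R 4.3.3) had TMM scaling, a term for each line and treatment, and terms for the mutants within each treatment (20 residual degrees of freedom, biological coefficient of variation 9.68%). Nothing says that libraries came from separate cultures, so p-values measure the spread between these libraries, which may be technical. Levels are CPM on TMM-scaled library sizes. The SE of a log2 difference was derived from its F statistic. The fit was tested on simulated data. Alternatives were RLE scaling, no filter, DESeq2 1.42.0, an additive line block, no block, no construct terms, a block for line and construct (chosen after seeing the data), and leaving out each line or library. Motifs and summaries used Python 3.11.15 with pandas 2.3.3. Every member is named in every comparison. Listed genes are named by rule, up to 2 of the largest called changes in each direction for a list and comparison, and Vpreb1 was added after its values were seen. The members and lists were chosen with earlier results of these data known.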

Additional observations from a re-analysis of the deposited data

Results flagged for a closer look

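Ikzf3 in untreated 621 had 1 library far below the others: G280 at 223 CPM (223.3), where the other 5 constructs lay between 268.5 and 288.4 CPM. It was the 1 such case among 60 groups of 6 libraries, of which chance marks about 5%.

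The nutlin response differed between the 3 lines, by an F test of the difference itself, in 4 of 10 members, where 60.3% of all genes tested were called. The adjusted p was 0.000531 for Ebf1, 0.00347 for Spib, 0.00535 for Foxo1 and 0.0109 for Ikzf1.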

How the results depend on the processing

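No result with a call changed direction in any alternative. Among values with no call in either analysis, 417 changed sign and were counted as unchanged. Scaling by RLE in place of TMM moved the median of all genes by at most 0.0221 log2. The calls on members kept their count, within 1.5 times, under RLE, no filter and DESeq2. With an additive line term as the replicate block, in which the lines share 1 response, pairs of member and mutant called under nutlin-3a went from 6 to 0 and members called for the mean of 5 mutants from 2 to 1. With no replicate block these counts were 0 and 0, and the members called in the control went from 7 members to 0. Libraries of 1 line and construct, untreated and treated, deviated together with r of 0.097 to 0.493 (median 0.285, 18 pairs), against a median of -0.0559 for other pairs of the line, but the labels do not say that they share a culture. With this combination as a replicate block, line-dependent responses went from 4 to 8 members, and response differences from 0 to 2 for the mean of 5 mutants (Ikzf1 and Hhex) and from 0 to 2 of 50 pairs. Leaving out a line or library gave 2 to 9 pairs under nutlin-3a, 1 to 3 members for the mean, 0 to 1 response differences for pairs and for the mean, 5 to 8 members in the control's response, and counts within 1.5 times elsewhere. Leaving out 1 line keeps at least 2 lines in every fit. Depth limits Bcl6 most. The cause of these changes was not tested.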
